A study of Mus musculus with 4 samples.

Results

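Parthenogenetic tetraploid mouse blastocysts were compared with parthenogenetic diploid blastocysts, that is, embryos with a doubled chromosome set against embryos with the usual set, both without a paternal genome. Members were the non-control probe sets of the array with a signal of 500 or more on at least 1 of the 2 arrays, which kept 10822 of 45037 probe sets (24.0%). Of these, 9578 carried 1 gene symbol, 369 several and 875 none, and the first group stood for 6361 of 18194 genes on the array. Each gene was represented by its member probe set with the highest mean signal. Differences are log2(signal + 10), tetraploid minus diploid, and folds are ratios of signal + 10, so both understate the change of dim genes.

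The series held 4 arrays, 1 for each combination of origin (parthenogenetic or fertilized) and ploidy (diploid or tetraploid). Each array carried RNA from a pool of 30 whole blastocysts collected at 96 hours (day 4). All tetraploid embryos were made by fusion, per the labels, whereas the diploid embryos were not described as fused, so ploidy and the fusion procedure cannot be told apart. The series design treats the tetraploid arrays as pseudoreplicates of the diploid ones. Strain, activation method, culture and cell number are not given in the sources used here. With 1 array per condition there was no replicate of a pool, no error and no test, and a difference of at least 2-fold is used below as a description of these 2 arrays only.

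A parthenogenetic embryo develops from an activated oocyte without sperm. It therefore carries maternal copies of imprinted genes only, whose silent and active alleles are set by the parent of origin. The blastocyst has an outer trophectoderm, which forms placental tissue, and an inner cell mass that separates into epiblast, the source of the fetus, and primitive endoderm, the source of yolk sac layers. Tetraploid embryos made by fusing blastomeres cleave with fewer and larger cells.

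The labelled tissue was checked against its markers. The trophectoderm markers Cdx2, Krt8 and Krt18, the epiblast markers Pou5f1 and Nanog, and the primitive endoderm markers Gata6, Sox17 and Pdgfra were all members. In all, 19 of 24 trophectoderm, 21 of 30 epiblast and 17 of 26 primitive endoderm markers on the array were members. So were 2 of 20 oocyte markers and 1 of 7 markers of the 2-cell stage. No cumulus or fibroblast marker was a member. Of 14 each on the array, only 7 and 8 lay at or below the control floor (set by bacterial control probe sets) on the parthenogenetic diploid array. The label of origin was checked with imprinted genes: the summed signal of 31 paternally expressed genes was 8555 on the parthenogenetic diploid and 8576 on the parthenogenetic tetraploid array, against 22971 and 28598 on the fertilized diploid and tetraploid arrays. Single genes of that list did not all separate the origins. Jade1 had 595 and 387 in the parthenogenetic pair, against 3043 and 4459 in the fertilized pair, and Tle3 had 1093 and 1443, against 2255 and 2455. Impact had 1936 and 1501, against 1261 and 1487, Inpp5f 1769 and 1479, against 1461 and 2472, and Etv6 565 and 362, against 724 and 400. On each parthenogenetic array 15 of the 31 genes lay at or below the control floor. No gene on these arrays checks ploidy.

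The parthenogenetic tetraploid array differed from the other 3 in its control ratios. For Actb, the signal at the 3' end over that in the middle of the transcript was 9.28 on it, against 5.13 on the parthenogenetic diploid array and 5.55 to 7.55 on the fertilized arrays. For Gapdh this ratio was 5.22, against 3.72 to 4.08 on the others, while the Actb ratio of the 3' to the 5' end was 127, inside the range of 108 to 137. The median signal was 154 on the tetraploid and 139 on the diploid array. The other control transcripts did not all follow. For Pcx the ratio of the 3' end to the middle was 4.47 on the tetraploid array, against 0.622 to 1.86 on the others, but for Tfrc it was 0.689, the lowest of the 4. The Tfrc ratio of the 3' to the 5' end set the parthenogenetic diploid array apart, at 31.5 against 2.32 to 4.90. The part of these ratios in the differences given below was not tested.

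Across all members, 489 probe sets (4.52%) were at least 2-fold higher and 718 (6.63%) at least 2-fold lower in tetraploid than in diploid parthenogenetic blastocysts. Among genes, 259 of 6361 (4.07%) were higher and 394 (6.19%) lower. With the arrays scaled to a common median, 22.9% of the called probe sets were higher, against 40.5% here, since that scaling moved the median difference from -0.04 to -0.19. The middle 50% of differences lay between -0.44 and 0.33. Calls were more frequent among dim probe sets: of 4120 with a highest signal of 500 to 1000, 7.01% were higher and 9.44% lower, and of 1137 at 8000 or more, 2.20% were higher and 0.967% lower. Just outside the filter, at 450 to 500, 95 of 820 probe sets were higher and 68 lower, and just inside, at 500 to 550, 83 of 738 were higher and 68 lower.

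The probe sets of a gene did not always point the same way. Of 2134 genes with 2 or more member probe sets, 52 were called higher, of which 34 had all member probe sets above 0 and 10 had all of them past 2-fold. Of the 68 called lower, 56 had all member probe sets below 0 and 19 had all of them past 2-fold.

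Maternally expressed imprinted genes held some of the largest differences. Phlda2, a growth-restraining gene of the placenta, had a signal of 2225 in diploid and 14678 in tetraploid parthenogenetic blastocysts, against 118 and 167 in fertilized diploid and tetraploid ones. Cdkn1c, an inhibitor of cyclin-dependent kinases, had a signal of 439 and 4374 in the parthenogenetic pair, against 159 and 93.6 in the fertilized pair. Phlda2 was thus 6.57-fold and Cdkn1c 9.76-fold higher in the tetraploid array, and for both genes the parthenogenetic tetraploid signal was at least 2-fold above the other 3 arrays. Both genes lie in the same imprinted cluster on chromosome 7.

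The start-proximal promoter of Phlda2 is shown because this gene was among the imprinted genes with the largest differences. RefSeq places the stretch at chr7:143502525-143502644 on the minus strand of GRCm38.p6, and capitals mark a TATA box (TATAAA, searched on both strands) that begins 30 bases before the start site. In the 250 bases before the start, these letters were found in 12.4% of all promoter windows and in 6.0% of the windows of member genes.
Phlda2: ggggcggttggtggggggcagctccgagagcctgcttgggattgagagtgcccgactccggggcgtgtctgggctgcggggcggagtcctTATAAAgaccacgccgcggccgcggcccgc

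The maternally expressed list did not move as a whole. Of its 17 member genes, the 2 higher ones were Phlda2 and Cdkn1c (11.8%, against 4.07% of all member genes). Another 2 were lower (11.8%, against 6.19%). The median difference of all 17 was 0.03, against -0.04 over all member genes. Cobl, an actin nucleator, had a signal of 677 in diploid and 87.9 in tetraploid blastocysts and was at least 4.29-fold lower, the bound coming from the control floor of the dim array. Ube3a, a ubiquitin ligase, had a signal of 3887 and 1751 and was 2.21-fold lower. Its dimmer probe sets outside the filter ranged from -1.01 to 0.98, and the brightest of them went the other way, with 217 and 436. Other members stayed within 2-fold: the difference was -0.76 for Meg3 (a noncoding RNA, whose 4 member probe sets ranged from -2.05 to -0.66 with a mean of -1.33), -0.17 for Grb10, -0.16 for Igf2r, 0.61 for Gnas and 0.26 for Cd81. Of 31 paternally expressed genes on the array, 5 were members and none was called: Etv6 at -0.63, Jade1 at -0.61, Impact at -0.36, Inpp5f at -0.26 and Tle3 at 0.40. The 3 member probe sets of Impact ranged from -1.24 to 0.59. Among X-inactivation genes, Xist, the RNA that silences an X chromosome, stood at -0.15, Chic1 at -0.83 and Rlim, a regulator of Xist, at 0.64.

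**Figure D1:**
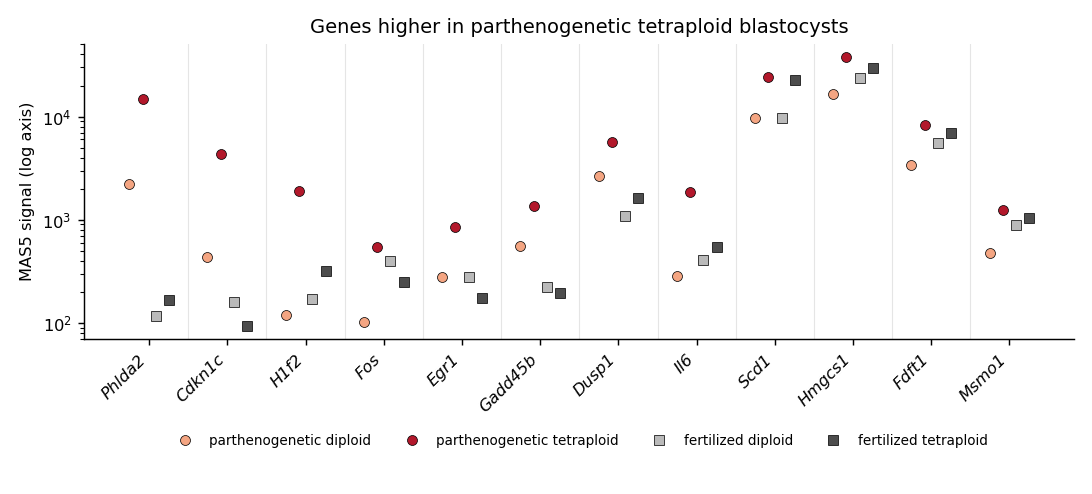
MAS5 signal (log axis) of 12 genes that were at least 2-fold higher in parthenogenetic tetraploid than diploid blastocysts, with 1 point per array and no error since each condition had 1 array. Phlda2 and Cdkn1c stand apart from the fertilized arrays on both parthenogenetic arrays, whereas for the sterol gene Fdft1 the fertilized signals lie between the parthenogenetic ones.

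Genes of mitosis and the spindle were lower in tetraploid parthenogenetic blastocysts. Of 48 member genes, 17 were at least 2-fold lower (35.4%, against 6.19% of all member genes) and none was higher. The difference was below 0 for 46 of 48, the 2 exceptions being Pttg1 at 0.54 and Spc24 at 0.27, and the median was -0.87, against -0.12 for the same genes in the fertilized pair. The parthenogenetic tetraploid signal was the lowest of the 4 arrays for 42 of 48 genes, as it was for 33.9% of all member genes.

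Cdk1, the kinase that drives entry into mitosis, had a signal of 3581 in diploid and 703 in tetraploid parthenogenetic blastocysts, and of 3404 and 2486 in fertilized diploid and tetraploid ones, a 5.03-fold difference in the parthenogenetic pair. Ncapd2, a condensin subunit, had 947 and 226, against 910 and 851, and was 4.06-fold lower. Prc1, which bundles the microtubules of the central spindle, had 4464 and 1421, against 5293 and 3220, and was 3.13-fold lower. For these 3 genes the tetraploid signal was at least 2-fold below each of the other 3 arrays, as it was for Ube2c, Ndc80, Hmmr and Cenpf. Plk1, a kinase of spindle assembly, was arranged differently: its signal was 1402 in diploid and 427 in tetraploid parthenogenetic blastocysts, but 434 and 855 in the fertilized pair, so that its tetraploid signal lay beside the fertilized diploid one. The kinase gene Aurkb was lower by 2 probe sets (-1.45 and -1.36), as was Prc1 (-1.64 and -1.40). Of 6 called genes with several member probe sets, 4 had all of them past 2-fold.

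Outside that list, Aspm, a spindle pole protein, had a signal of 4304 and 682, against 3413 and 4139, and was 6.23-fold lower. It was the only one of 23 centriole and centrosome genes that was called, and the median of that list was -0.32. Plk4, the kinase that starts centriole duplication, stood at -0.07. Cenpn, a centromere protein, had 2195 and 357, against 1961 and 1845, and was 6.01-fold lower, with both member probe sets past 2-fold. Among 43 DNA replication genes 5 were lower (11.6%, against 6.19% of all member genes) and 2 higher (4.65%, against 4.07%), with a median of -0.22: Tk1 (thymidine kinase) at -1.28, Pola2 (a primase-polymerase subunit) at -1.23 and Mcm7 (a helicase subunit) at -1.07 were lower, and Rfc1 at 1.05 and Pold3 at 1.02 were higher. As the mean of its member probe sets, Rfc1 stood at 0.02 and Pold3 at 0.90, so neither was then called. A further Pold3 probe set, just outside the filter with 499 and 243, went the other way at -1.01.

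Start-proximal promoter sequences of 3 of the mitotic genes are shown because a cell cycle homology region (CHR, TTTGAA or its reverse complement TTCAAA) is a known element of genes expressed in late cell cycle phases. All are from RefSeq on GRCm38.p6, in the direction of transcription, with the element in capitals: Cdk1 at chr10:69352913-69353032 (minus strand), Prc1 at chr7:80294356-80294475 (plus strand) and Ube2c at chr2:164769809-164769928 (plus strand). The letters were found in 18 of 43 windows of the mitosis list (41.9%) and in 5 of 14 windows of its genes called lower (35.7%), against 10.5% of the windows of member genes and 16.0% of all windows.
Cdk1: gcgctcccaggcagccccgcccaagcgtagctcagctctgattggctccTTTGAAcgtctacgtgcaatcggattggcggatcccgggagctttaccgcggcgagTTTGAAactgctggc
Prc1: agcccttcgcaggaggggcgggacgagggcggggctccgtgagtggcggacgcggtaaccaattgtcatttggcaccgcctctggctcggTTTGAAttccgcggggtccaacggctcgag
Ube2c: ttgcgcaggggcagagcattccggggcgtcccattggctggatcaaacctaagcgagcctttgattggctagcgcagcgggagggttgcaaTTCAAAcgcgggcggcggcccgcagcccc

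Regulators that act before mitosis differed less. Of 18 genes for G1 cyclins, kinases and inhibitors, 1 was higher (5.56%, against 4.07% of all member genes) and 2 were lower (11.1%, against 6.19%). The difference was below 0 for 14 of the 18, with a median of -0.28. Cdkn1c was higher, and Cdk4, the partner kinase of the D-type cyclins, was lower with a signal of 1994 and 897 (2.21-fold). Tfdp2, a partner of E2F factors, had 854 and 422 and was also called lower, but not with quantile normalization (-0.97). Ccnd1 stood at 0.59 and Cdkn1a at 0.62. Of 20 targets of p53, 3 were higher (15% against 4.07% of all member genes) and none lower. Plk2 had a signal of 721 and 1577, and Trp53inp1 of 7212 and 15728, and both fell just short of 2-fold with common median scaling (0.96 and 0.97). A dimmer Trp53inp1 probe set outside the filter had 445 and 498 (0.16). The third higher gene, Plk3, had 77.3 on the diploid and 518 on the tetraploid array and was at least 4.29-fold higher by its bound. Mdm2, the p53-regulated inhibitor of p53, stood at -0.23. The median of the 20 p53 targets was 0.30, against 0.25 in the fertilized pair. There 2 of them were higher and 1 lower, where 2.11% of all member genes were higher and 1.86% lower.

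**Figure D2:**
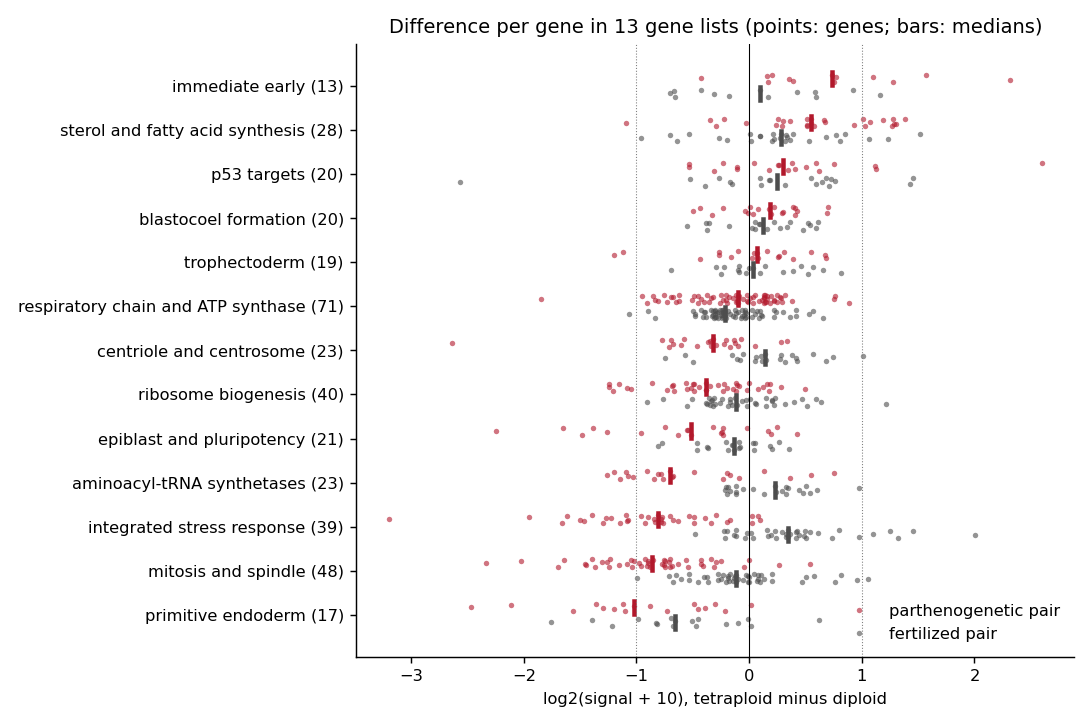
Differences of single genes (points) and list medians (bars) in 13 gene lists, in log2(signal + 10), tetraploid minus diploid, with the number of member genes in brackets and dotted lines at 2-fold. In the parthenogenetic pair (red) primitive endoderm, mitosis and integrated stress response medians lie at -1.02, -0.87 and -0.81, and in the fertilized pair (grey) at -0.66, -0.12 and 0.34.

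Primitive endoderm genes had the lowest median of the blastocyst cell type lists. Of 17 member genes, 9 were at least 2-fold lower (52.9%, against 6.19% of all member genes), none was higher and 16 were below 0, with a median of -1.02. In the fertilized pair the same 17 genes had a median of -0.66, with 3 lower, where 1.86% of all member genes were lower. The genes called in the parthenogenetic pair were mostly endocytic receptors and basement membrane components. Because the arrays measured whole blastocysts, fewer cells of a type and less RNA per cell cannot be told apart.

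Cubn, the endocytic receptor cubilin, had a signal of 5611 in diploid and 1289 in tetraploid parthenogenetic blastocysts, against 2408 and 1028 in fertilized ones, and was 4.33-fold lower. Its partner Amn had 2001 and 353, against 267 and 415, and was 5.54-fold lower. For these 2 genes the parthenogenetic diploid array was at least 2-fold above the other 3, so that their tetraploid signals lay near the fertilized ones. Lama1, a laminin chain, had 7066 and 2380, against 4646 and 2896, and was 2.96-fold lower. Col4a1, a collagen chain of basement membranes, had 6377 and 2487, against 6608 and 3742, and was 2.56-fold lower. Dab2, an adaptor of endocytic receptors, was the gene of this list with a tetraploid signal at least 2-fold below the other 3 arrays, at 7852 against 16945 to 18194. It passed 2-fold by its brightest probe set but not by the mean of its 4, which ranged from -1.77 to -0.50. Of the factors that define the lineage, Sox7 was called lower at -1.30, while Gata6 at -0.73, Sox17 at -0.39 and the receptor Pdgfra at -0.49 stayed within 2-fold. The probe sets of Gata6 ranged from -1.87 to -0.40, and those of Pdgfra from -0.49 to 0.79.

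Epiblast and pluripotency genes were also lower in part. Of 21 member genes, 5 were at least 2-fold lower (23.8%, against 6.19% of all member genes) and none was higher (4.07%), with a median of -0.51. The count was 2 at a minimum signal of 1000 and 9 with no filter. Prdm14, a repressor that sustains pluripotency, had a signal of 831 and 168, against 491 and 503 in the fertilized pair, and was 4.74-fold lower. Fgf4, the growth factor by which epiblast cells signal to primitive endoderm, had 2167 and 683, against 1644 and 1875, and was 3.14-fold lower. Sox2 had 1877 and 711, against 1546 and 1358, and was 2.62-fold lower. Nodal, a ligand of the TGF-beta family, stood at -1.48, with the diploid array at least 2-fold above the other 3, and Esrrb stood at -1.26. The core factors Nanog, at -0.51, and Pou5f1, at -0.24, stayed within 2-fold.

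Part of the FGF pathway was lower. Of 14 FGF and ERK signalling genes, 4 were lower (28.6%, against 6.19% of all member genes) and none higher (4.07%), and 4 were above 0, with a median of -0.23 (-0.49 with a minimum signal of 250): Fgf4, the receptor Fgfr1 (522 and 175), the feedback inhibitor Spry1 (1173 and 490) and the kinase Map2k2 (546 and 228). For Fgf4, Fgfr1 and Spry1 the tetraploid signal was at least 2-fold below each of the other 3 arrays. A pair of dimmer Fgfr1 probe sets outside the filter went the other way, with 130 and 372 on the brighter one.

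Trophectoderm genes did not share this direction. Of 19 member genes, 12 were above 0 and 7 below, with a median of 0.07 that turned to -0.09 with common median scaling and to -0.06 with quantile normalization. Cdx2, the lineage factor, had a signal of 3680 and 3785, and the keratin Krt8 of 32247 and 34062. The 2 called genes, Dab2 and Lrp2, were lower (10.5%, against 6.19% of all member genes) and also belong to the primitive endoderm list. No trophectoderm gene was at least 2-fold higher, against 4.07% of all member genes. None of 20 genes of blastocoel formation was called, and the water channel Aqp3 stood at 0.03 and the junction protein Cdh1 at 0.22. The summed signal of all 26 primitive endoderm markers was 88775 in diploid and 54579 in tetraploid parthenogenetic blastocysts, that of 30 epiblast markers was 127665 and 108268, and that of 24 trophectoderm markers was 249473 and 270978.

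**Figure D3:**
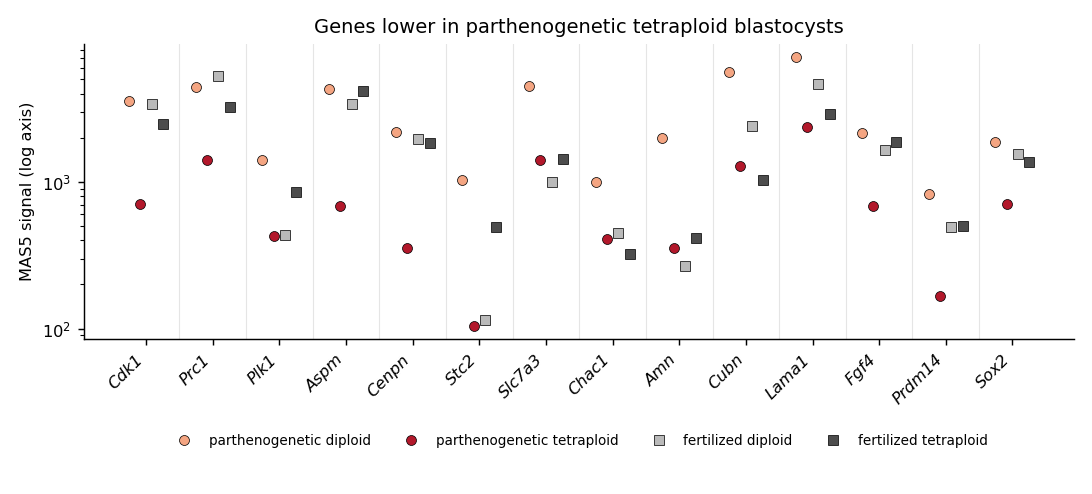
MAS5 signal (log axis) of 14 genes that were at least 2-fold lower in parthenogenetic tetraploid than diploid blastocysts, with 1 point per array. For Cdk1, Prc1, Aspm and Cenpn the tetraploid point (dark red) lies below the other 3 arrays, and for Slc7a3, Chac1, Amn and Cubn the diploid point (light red) lies above them.

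Genes of the integrated stress response were lower in tetraploid parthenogenetic blastocysts. In this response, phosphorylation of the initiation factor eIF2 slows general translation and favours translation of ATF4, which turns on genes for amino acid uptake, amino acid synthesis and tRNA charging. Of 39 member genes, 14 were at least 2-fold lower (35.9%, against 6.19% of all member genes) and none was higher (4.07%); 35 were below 0 and the median was -0.81. In the fertilized pair the same genes had a median of 0.34, with 5 higher and none lower, where 2.11% of the same 6361 genes were higher and 1.86% lower. The parthenogenetic diploid signal was the highest of the 4 arrays for 28 of 39 genes (71.8%, against 23.4% of all member genes), and the tetraploid signal was the lowest for 17 (43.6%, against 33.9%).

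Among uptake genes, Slc7a3, a transporter of cationic amino acids, had a signal of 4501 in diploid and 1417 in tetraploid parthenogenetic blastocysts, against 1002 and 1427 in fertilized ones, and was 3.16-fold lower. Slc7a5, a transporter of large neutral amino acids, had 3233 and 1524, against 863 and 1157. In both, the diploid array stood at least 2-fold above the other 3. Slc38a2 was arranged the other way, with 1605 and 649 against 4237 and 3858, so that the tetraploid array stood at least 2-fold below the other 3.

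Among enzymes, Shmt2, of mitochondrial serine metabolism, had a signal of 1499 and 481, against 909 and 778, and was 3.07-fold lower. Its dimmer probe sets outside the filter were lower by less than 2-fold (-0.63 to -0.50). Aldh18a1, of proline synthesis, was lower by 4 member probe sets. The difference was -1.32 to -1.51 for 3 of them, and the other, with a tetraploid signal below the control floor, was at least 3.31-fold lower. A dimmer Aldh18a1 probe set outside the filter stood at 0.35, with 231 and 296. Cbs stood at -1.39 and Cth at -1.23, both of which act in cysteine synthesis. Chac1, which degrades glutathione and is a known ATF4 target, had 1000 and 409, against 451 and 322, and was 2.41-fold lower. Stc2, a secreted glycoprotein induced in this response, had 1036 and 104, against 114 and 491, and was at least 6.52-fold lower by its bound. Vldlr, a lipoprotein receptor, had 1363 and 343, against 600 and 844, and was 3.89-fold lower. The mRNA of Atf4 itself stood at 0.03, with signals of 14660 and 14921. Of 23 genes for aminoacyl-tRNA synthetases and their partners, 6 were lower (26.1%, against 6.19% of all member genes) and none higher, with a median of -0.70, against 0.23 in the fertilized pair. Tars and Aars belong to both lists.

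Promoter stretches of 4 of these genes are shown because they hold a CARE (the response element bound by CEBP and ATF factors), searched as TGATGNAA and its reverse complement TTNCATCA and marked in capitals. All are from RefSeq on GRCm38.p6: Vldlr at chr19:27216770-27216889 (plus strand), Chac1 at chr2:119350993-119351112 (plus strand), Tars at chr15:11399659-11399778 (minus strand) and Aars at chr8:111033674-111033793 (plus strand). The letters were found in 7 of 35 windows of the list (20%) and in 4 of 12 windows of its genes called lower (33.3%), against 1.97% of the windows of member genes and 3.45% of all windows.
Vldlr: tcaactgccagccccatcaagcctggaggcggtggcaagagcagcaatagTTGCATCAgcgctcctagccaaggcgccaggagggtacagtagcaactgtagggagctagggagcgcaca
Chac1: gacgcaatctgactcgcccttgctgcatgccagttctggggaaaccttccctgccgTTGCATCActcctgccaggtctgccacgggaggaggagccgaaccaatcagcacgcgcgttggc
Tars: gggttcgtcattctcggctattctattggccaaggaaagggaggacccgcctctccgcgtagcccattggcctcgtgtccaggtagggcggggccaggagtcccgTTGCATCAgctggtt
Aars: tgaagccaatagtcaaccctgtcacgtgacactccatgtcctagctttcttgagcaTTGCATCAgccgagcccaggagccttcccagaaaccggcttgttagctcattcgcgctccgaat

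**Figure D4:**
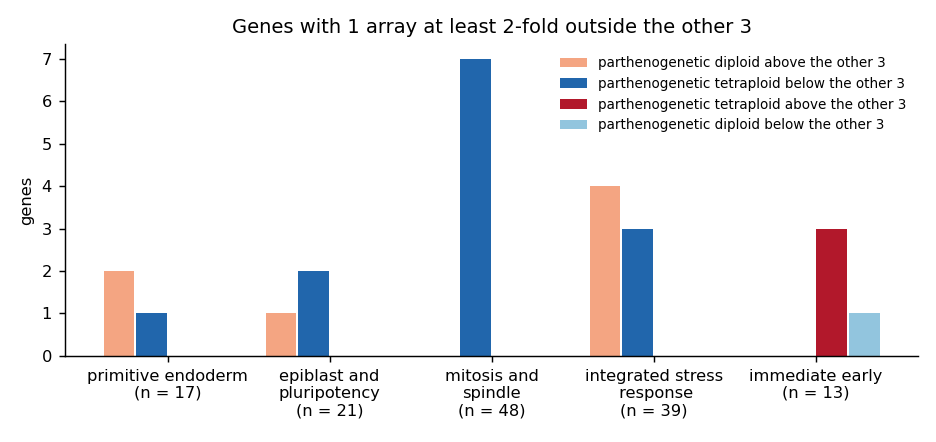
Number of genes in 5 lists for which 1 parthenogenetic array lay at least 2-fold outside each of the other 3 arrays. In the mitosis list the tetraploid array lay below for 7 of 48 genes and the diploid array above for none, whereas in the integrated stress response list the diploid array lay above for 4 of 39 and the tetraploid array below for 3.

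Over all 6361 member genes, the parthenogenetic tetraploid array lay at least 2-fold above the other 3 for 101 (1.59%) and below them for 140 (2.2%), or 132 with dim signals raised to the control floor. The parthenogenetic diploid array lay above them for 39 (0.613%) and below them for 27 (0.424%).

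Sterol and fatty acid synthesis genes were higher in tetraploid parthenogenetic blastocysts. Of 28 member genes, 9 were at least 2-fold higher (32.1%, against 4.07% of all member genes) and 1 was lower, with 23 above 0 and a median of 0.55. In the fertilized pair the same 28 genes had a median of 0.28, with 3 higher and none lower. Of all member genes, 2.11% were higher and 1.86% lower in that pair. The parthenogenetic tetraploid signal was the highest of the 4 arrays for 17 genes (60.7%, against 30.2% of all member genes), and the diploid signal was the lowest for 13 (46.4%, against 19.4%).

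Hmgcs1, which makes the precursor of mevalonate, had a signal of 16400 and 37464, against 23621 and 29438 in the fertilized pair, and was 2.28-fold higher. Fdft1, the squalene synthase, had 3405 and 8276, against 5496 and 6954, and was 2.43-fold higher. Msmo1, a later sterol oxidase, had 477 and 1256, against 899 and 1036, and was 2.60-fold higher. Thus for these 3 genes the fertilized signals lay between the parthenogenetic ones. The desaturase Scd1 had 9774 and 24204, against 9675 and 22744, and so differed by ploidy in both origins, as did Cyp51 (1.28 and 1.52). Scd2 was 2.41-fold higher, with both member probe sets past 2-fold. Lss stood at 1.08, Hsd17b7 at 1.03 and Mvd at 1.01. Fasn, the fatty acid synthase, was the exception, with 1358 and 633. With common median scaling, 6 of the 9 stayed past 2-fold and the median was 0.40.

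The Hmgcs1 promoter is shown for its sterol regulatory element (SRE, searched as TCACNCCAC and its reverse complement GTGGNGTGA), in capitals, at chr13:119690158-119690277 on the plus strand of GRCm38.p6 (RefSeq). The letters were found in 1 of 29 windows of the list (3.45%), against 0.968% of the windows of member genes and 1.05% of all windows.
Hmgcs1: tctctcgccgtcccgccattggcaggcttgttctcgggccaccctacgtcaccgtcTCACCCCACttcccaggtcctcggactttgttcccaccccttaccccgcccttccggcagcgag

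Immediate early genes, which respond to stimuli without new protein synthesis, were higher in part. Of 13 member genes, 4 were higher (30.8%, against 4.07% of all member genes), none was lower and 12 were above 0, with a median of 0.73 against 0.10 in the fertilized pair. That median was 0.40 with a minimum signal of 250, 0.39 with 1000, and 0.44 with probe sets of a gene averaged. Egr1, a zinc finger factor, had a signal of 279.7 and 849.8, against 280.8 and 174, and was 2.97-fold higher. Gadd45b, a stress sensor, had 552 and 1349, against 221 and 194, and was 2.42-fold higher. Dusp1, a phosphatase of MAP kinases, had 2635 and 5673, against 1083 and 1631, and was 2.15-fold higher, which fell just short of 2-fold with common median scaling. For these 3 genes the tetraploid array stood at least 2-fold above the other 3. Fos differed: its signal was 101 in diploid and 541 in tetraploid parthenogenetic blastocysts, against 401 and 248, so that the diploid array stood at least 2-fold below the other 3, and the tetraploid signal was at least 4.47-fold higher by its bound.

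The Fos promoter is shown for the short form of the cyclic AMP response element (TGACGT, reverse complement ACGTCA), in capitals, at chr12:85473767-85473886 on the plus strand of GRCm38.p6 (RefSeq). The letters were found in 3 of 15 windows of the list (20%), against 11% of the windows of member genes and 6.47% of all windows.
Fos: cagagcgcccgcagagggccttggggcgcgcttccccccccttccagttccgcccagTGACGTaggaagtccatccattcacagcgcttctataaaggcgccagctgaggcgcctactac

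Other genes with the largest differences belonged to no single list. H1f2, a linker histone, had a signal of 121 and 1898, against 172 and 319, and was 14.6-fold higher. Its diploid signal lay just above the control floor of 113. Dimmer H1f2 probe sets outside the filter differed less, with 161 and 450 (1.43) and with 57.9 and 62.5 (0.09). Il6, a cytokine, had 288 and 1853, against 407 and 545, and was 6.25-fold higher. Gata1, a factor of blood cell development, had 190 and 1048, against 305 and 236. Plcb3, a phospholipase, had 18.8 on the diploid array, below its control floor of 113, and 660 on the tetraploid array, against 411 and 394, so its difference of at least 5.44-fold came from a dim diploid signal. Myom2, a muscle structural protein, was higher by both member probe sets (1.96 and 2.81), and Pfn2, an actin-binding profilin, by 3 (1.17 to 1.31). In the fertilized pair the brightest Myom2 probe set was also higher, with 518 and 1567 (1.58), whereas that of Pfn2 stood at -0.25.

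On the lower side, most of the 15 genes with the largest differences were at or below the control floor of 150.3 on the tetraploid array, so only a bound can be given. Podxl, a sialomucin of epithelial surfaces, had 1041 and 122, against 231 and 171, and was at least 6.56-fold lower. Kcnk1, a potassium channel, had 549 and 15.9, against 53.5 and 57.2, and was at least 3.49-fold lower. For both genes the diploid signal was at least 2-fold above the other 3 arrays, and for Kcnk1 the other 3 signals all lay below their control floors, where they have no order. Klf15, a zinc finger factor, had 679 and 40.7, against 1018 and 729, and was at least 4.30-fold lower, with the tetraploid array apart. Emb, a membrane glycoprotein, had 1136 and 316 and was 3.52-fold lower. Its other member probe set, with a tetraploid signal below the control floor, was at least 4.88-fold lower.

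The ploidy difference of the parthenogenetic pair was set beside that of the fertilized pair, which shares no array with it. For the same 10822 probe sets, 280 (2.59%) were at least 2-fold higher and 216 (2%) lower in fertilized tetraploid blastocysts, and for the same genes 134 (2.11%) were higher and 118 (1.86%) lower. The median size of the difference was 0.39 in the parthenogenetic and 0.30 in the fertilized pair. Of the 489 probe sets higher in the parthenogenetic pair, 44 were also 2-fold higher in the fertilized pair and 26 were 2-fold lower. Of the 718 lower ones, 36 were also lower and 17 were higher. Over the member probe sets, several of which can measure 1 gene and which all come from the same 4 arrays, the differences correlated at r = 0.12 (Spearman's rho 0.14). Whether the pairs differ beyond the variation between pools could not be tested.

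**Figure D5:**
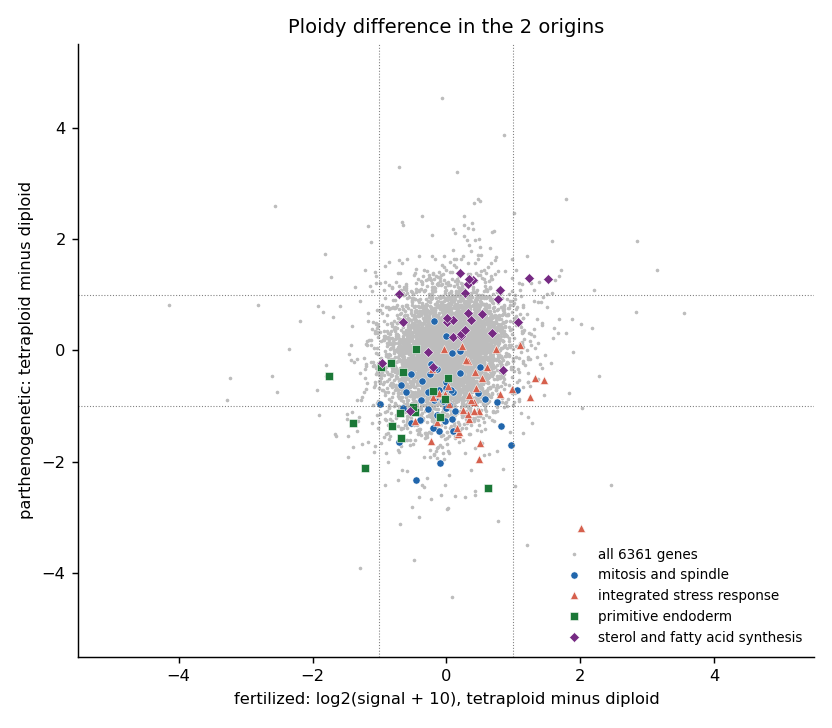
Difference of each of 6361 genes in the parthenogenetic pair (vertical) against the fertilized pair (horizontal), both log2(signal + 10), tetraploid minus diploid, with dotted lines at 2-fold and 4 lists coloured. Stress response genes (triangles, medians -0.81 and 0.34) lie mostly below and to the right of the origin, and primitive endoderm genes (squares, medians -1.02 and -0.66) below and to the left.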

How the data were processed

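The authors deposited 1 MAS5 signal intensity per probe set and array on a linear scale, and MAS5 is named without a version per the submitters' processing notes. RNA was amplified in 2 cycles and labelled with biotin, per the labels' protocols. The trimmed mean (2% off each end) was 500.0 on every array, so the deposited scaling was kept. Neither detection calls nor single probes were used here, and scan dates were not at hand to test a batch. The sources used here name no genome build for the probes. Symbols came from the platform annotation, updated through the RefSeq table of GRCm38.p6, which matched 34741 of 34945 probe sets with 1 symbol. Promoter sequences are RefSeq's, and 5267 of 6361 member genes had a window.

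Differences of log2(signal + 10) were computed with Python 3.11.15, pandas 2.3.3 and numpy 2.4.6, and the code was tested on simulated data. The control floor of an array is the 95th percentile of 27 bacterial control probe sets. Where the dim array lay at or below it, the floor replaced the signal and the fold is given as "at least". Of the probe sets called higher and lower, 17 and 51 were of this kind. Intensities from 1 array per condition allow no interval, and the number of arrays limits the precision.

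Genes were named as the 15 with the largest difference each way, the 10 each way whose several probe sets all passed 2-fold by the largest margin, up to 4 per list each way with the gene that defines the list, and imprinted and X-inactivation genes. Other list members were named after their values were seen. The members and the 45 lists were chosen with earlier results of these data known, and 4 symbols of uncertain imprinting were dropped. Pseudocount, filter, scaling, floor and probe set choice were varied.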

Additional observations from a re-analysis of the deposited data

Results flagged for a closer look

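Among the genes named by the rules above, 4 passed 2-fold in opposite directions in the parthenogenetic and the fertilized pair by their deposited signals. This difference was not tested, since each condition had 1 array. Over all members, 26 probe sets higher and 17 lower in the parthenogenetic pair passed 2-fold the other way in the fertilized pair. Plk3, a stress-responsive kinase, differed by 2.60 (log2, tetraploid minus diploid) in the parthenogenetic pair and by -2.57 in the fertilized pair. Its signals were 77.3 (diploid) and 518 (tetraploid) in the parthenogenetic pair and 156 and 18.0 in the fertilized pair, and the lower signal of each pair lay below the control floor of its array. With these signals raised to the floor, the parthenogenetic difference was at least 4.29-fold, but the fertilized one at least 1.51-fold, so that the latter is not shown to pass 2-fold. Stc2, of the integrated stress response, differed by -3.20 and 2.01, and again the lower signal of each pair lay below its floor, which leaves bounds of at least 6.52-fold lower and at least 3.24-fold higher. Smco4, a membrane protein, differed by -3.50 and 1.20, and its parthenogenetic tetraploid signal of 35.5 lay below the control floor, which leaves a bound of at least 3.22-fold lower. Tead3, a partner of the Hippo effector YAP, differed by 1.16 and -1.15, with signals of 393 and 892 in the parthenogenetic and 450 and 198 in the fertilized pair.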

How the results depend on the processing

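The number of probe sets called depended on the filter. With a minimum signal of 250, 1837 were higher and 1676 lower. With a minimum of 1000, 200 were higher and 329 lower, and with no filter 8820 were higher and 7983 lower. Common median scaling gave 308 higher and 1037 lower, and quantile normalization 605 and 679. Lower epiblast genes numbered 2 at a minimum of 1000 and 9 with no filter, and higher immediate early genes 2 and 8. For the primitive endoderm, mitosis, integrated stress response, tRNA synthetase and sterol lists, counts stayed within 1.5 times under every alternative. Under common median scaling the medians were -1.17 for primitive endoderm, -1.02 for mitosis and -0.96 for the stress response. No result changed direction among those called. Of the values of single genes under the alternatives, 1218 kept their side of 2-fold, 27 dropped below it, 1 (Meg3) newly passed it and 5 small differences within 2-fold changed sign or size. Raising dim signals to the control floor could not change the counts, because members reach 500 on 1 array. Leaving out a replicate was not possible, with 1 array per condition. No paired analysis was possible because each condition had 1 array and the labels carry no replicate numbers.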

Other observations

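Over all member genes, 4.07% were at least 2-fold higher and 6.19% lower in tetraploid parthenogenetic blastocysts, and several large gene groups are set beside these shares. Of 71 respiratory chain and ATP synthase genes, 1 was called (Cox8a, lower; 1.41%), with a median of -0.10. Of 49 splicing factors, 1 was called (Prpf8, lower, at -1.26; 2.04%), with a median of 0.11. Of 43 cytosolic ribosomal protein genes, 4 were lower (Rpl22l1, Rps3a1, Fau and Rplp0; 9.30%), with a median of -0.18, and of 38 proteasome genes 3 were lower (7.89%), with a median of -0.27. Of 40 ribosome biogenesis genes 6 were lower (15%) and none higher, 33 were below 0 and the median was -0.38. Genes on the X chromosome had a median of 0.11, which turned to -0.05 with common median scaling, with 16 of 262 higher (6.11%) and 21 lower (8.02%). Both parthenogenetic arrays often stood above the fertilized ones for X genes. The tetraploid signal was the highest of the 4 arrays for 146 (55.7%, against 30.2% of all member genes). The diploid signal was the highest for 110 (42.0%, against 23.4%).

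Single genes of other groups also passed 2-fold. Pfkp, a phosphofructokinase of glycolysis, had a signal of 2478 in diploid and 457 in tetraploid parthenogenetic blastocysts, against 405 and 400 in fertilized ones, so that the diploid array stood apart. Itgb1, an integrin chain, had 1353 and 4217, against 965 and 1044, with the tetraploid array apart. Slc11a2, an iron importer, had 1278 and 3372, against 781 and 1069. Ezh1, a histone methyltransferase, had 796 and 290, against 800 and 600, and Uhrf1, which helps to maintain DNA methylation, had 3076 and 1421, against 3533 and 2990. Among 100 families set by symbol alone, the kinesin genes (Kif) had the lowest median, at -0.60, and the dual-specificity phosphatase genes (Dusp) the highest, at 0.56. Of the kinesin genes 1 of 15 was lower (6.67%), near the 6.19% of all member genes. Of the phosphatase genes 2 of 9 were higher (22.2%, against 4.07%). In the fertilized pair these medians were -0.05 and 0.43.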
